A study of Mus musculus with 2 samples.

Results

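The core circadian clock genes Per1, Per2, Per3, Cry1, Cry2, Arntl, Clock, Npas2, Nr1d1 and Rora were examined for occupancy by CREM in male germ cells. A probe was taken as belonging to 1 of these 10 genes when the array's own gene name for it was that symbol or a synonym of it, and all 10 were present, out of 17342 gene names with values. Together they had 392 probes, of which 379 gave values. Germ cells of adult male C57BL/6 mice, pooled from 5 testes, were fixed in 1% formaldehyde for 10 min and sonicated. The chromatin was then precipitated with the CREM antibody sc-440 or, as the negative control, with goat IgG. The CREM precipitate carried Cy5 and the IgG precipitate Cy3, and the pair was hybridised to 2 promoter arrays that shared 0 probes.

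Each array was hybridised 1 time and the dyes were not exchanged, so no gene had a replicate, there was no test across samples, and antibody and dye cannot be told apart. The cells were a mixture of germ cell stages, so a ratio cannot be assigned to 1 stage, and the arrays measured DNA, so the cell type could not be checked by its transcripts. Array 1 carried Per2, Per3, Cry2, Arntl, Clock and Npas2, and array 2 carried Per1, Cry1, Nr1d1 and Rora. Every value below is a log2 ratio of CREM over IgG from the scanner's processed signals, centred on the median of the array, with positions in mouse build mm9. Spots of the same control probe differed by an SD of 0.27 on array 1 and 0.33 on array 2 (medians over 18 and 21 control probes, most of them dim). For the 2 and 4 of these that were well above background in both channels the median SD was 0.11 and 0.09. Neither value covers the spread between precipitations, and the number of arrays limits the precision.

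The mammalian clock is a feedback loop of transcription. CLOCK, or its paralogue NPAS2, pairs with ARNTL (also called BMAL1) and activates genes through the E-box, CACGTG, among them the Per and Cry genes, whose protein products then inhibit that pair. In a further loop NR1D1 (REV-ERB alpha) represses and RORA activates Arntl through ROR elements, and factors such as DBP, TEF and HLF act through the D-box. CREM belongs to the CREB family and binds the cAMP response element, TGACGTCA, and Per1 is a well-known cAMP-responsive gene of the central clock in the brain. In mouse testis, Per1 transcripts have been linked to stages of spermatogenesis rather than to the time of day.

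The sequences on which the results turn begin with the probes of the highest window at Per1, where a window is a run of 3 probes, no 2 adjacent starts being over 500 bp apart, and the median of the run is its value. They are shown because this was the highest window of the 10 genes, and they held none of the elements searched. All 3 are written along the plus strand of mm9 (chr11:68911048-68911104, chr11:68911235-68911279 and chr11:68911373-68911432).
Per1 window, probe 1: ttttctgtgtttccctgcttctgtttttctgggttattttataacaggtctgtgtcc
Per1 window, probe 2: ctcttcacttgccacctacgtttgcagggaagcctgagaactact
Per1 window, probe 3: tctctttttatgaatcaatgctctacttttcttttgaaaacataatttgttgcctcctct

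The 250 bases before a transcript start were taken from RefSeq promoters of build GRCm38.p6, which held 13 entries for 9 of the 10 genes. Only sequence was taken from this build, and promoters were tied to the mm9 probes by exact matches of probe sequences. Both Per1 promoters are shown because the enriched stretch reaches the first of them and a further one lies at the second, 1203 bp downstream. The promoters of Cry1 and Per3 are shown as examples that held elements and had a ratio on the IgG side, that is, below 0, at their starts. Such a ratio was not particular to them. Within 500 bp of the start the median was also below 0 at Clock (-1.36), Npas2 (-0.99), Rora (-0.60), Arntl (-0.59) and Cry2 (-0.14). Capitals mark the elements found, namely the core of the cAMP response element (TGACG, or CGTCA on the other strand), the E-box and the D-box (TTATGTAA or TTACGTAA). All 4 are written along the strand of the gene (plus for Per1, chr11:69098699-69098948 and chr11:69099902-69100151, and minus for Cry1, chr10:85185055-85185304, and Per3, chr4:151044666-151044915, all GRCm38.p6).
Per1, first start: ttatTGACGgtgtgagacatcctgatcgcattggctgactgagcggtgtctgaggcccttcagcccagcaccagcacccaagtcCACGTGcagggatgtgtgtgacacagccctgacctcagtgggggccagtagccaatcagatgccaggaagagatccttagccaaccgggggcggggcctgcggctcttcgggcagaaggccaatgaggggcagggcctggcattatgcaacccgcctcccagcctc
Per1, second start: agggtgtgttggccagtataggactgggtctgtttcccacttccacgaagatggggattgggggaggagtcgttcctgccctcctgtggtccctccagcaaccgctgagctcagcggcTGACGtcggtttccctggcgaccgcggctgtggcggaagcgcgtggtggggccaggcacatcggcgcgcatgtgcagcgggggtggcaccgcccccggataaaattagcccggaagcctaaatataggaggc
Cry1: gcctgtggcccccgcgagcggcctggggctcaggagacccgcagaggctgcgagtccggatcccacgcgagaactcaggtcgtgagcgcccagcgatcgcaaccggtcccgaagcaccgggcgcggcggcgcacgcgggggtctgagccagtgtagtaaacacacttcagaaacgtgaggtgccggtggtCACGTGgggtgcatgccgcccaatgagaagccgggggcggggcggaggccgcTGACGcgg
Per3: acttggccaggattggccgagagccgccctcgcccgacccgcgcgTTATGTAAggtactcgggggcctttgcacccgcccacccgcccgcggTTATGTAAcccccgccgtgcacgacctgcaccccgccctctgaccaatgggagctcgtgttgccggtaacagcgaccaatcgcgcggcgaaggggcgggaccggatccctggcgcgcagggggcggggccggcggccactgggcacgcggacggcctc

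CREM enrichment at the clock genes was concentrated at Per1, which encodes a repressor of the CLOCK and ARNTL pair. Its 43 probes spanned 8548 bp around its starts, and the lowest, median and highest of them were -1.03, 0.96 and 3.86. Of these probes 35 lay above 0 and 21 at or above 1, a 2-fold ratio, against 1 at or below -1. The highest window of Per1 was 2.44 (chr11:68911048-68911432), between -1403 and -1019 bp from its first start. Its 3 probes read 2.50, 1.61 and 2.44. Their processed signals were 8053, 4955 and 3714 in the CREM channel, against 1401, 1600 and 673 in the IgG channel, and all 3 were well above background in both. This window was picked for its high ratio, so the higher CREM signal at its probes is a description and not separate support.

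The enrichment at Per1 was broad. Windows at or above 1 are called here, those at or below -1 are termed IgG-side, and windows of 1 kind that share a probe form a region. One region at Per1 held 19 windows over 4505 bp, from -4584 to -80 bp (chr11:68907867-68912371). Among 7673 such regions on both arrays, with a median length of 692 bp, it was the longest, and the longest elsewhere measured 3780 bp. All 21 probes inside it lay above 0, with 0.37, 1.61 and 3.86 as the lowest, median and highest, and 17 reached 1. The CREM signal of these probes was 352, 2083 and 8053 (lowest, median and highest), against 57.7, 609 and 2050 for IgG.

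The highest single probe, at 3.86 (chr11:68908578), was dim in the IgG channel, that is, not well above background, with signals of 850.1 for CREM and 57.7 for IgG. Over the Per1 locus 37 of 43 probes were well above background in IgG, and only 2 of its 21 probes at or above 1 were not. The length of the region depended on 1 setting. With adjacent starts no more than 300 bp apart, which cuts the locus at its wider gaps between probes, the longest Per1 region was 1556 bp and ranked 133 by length. In the other 10 settings tried it ranked 1 to 3, with 3286 to 4752 bp.

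**Figure D1:**
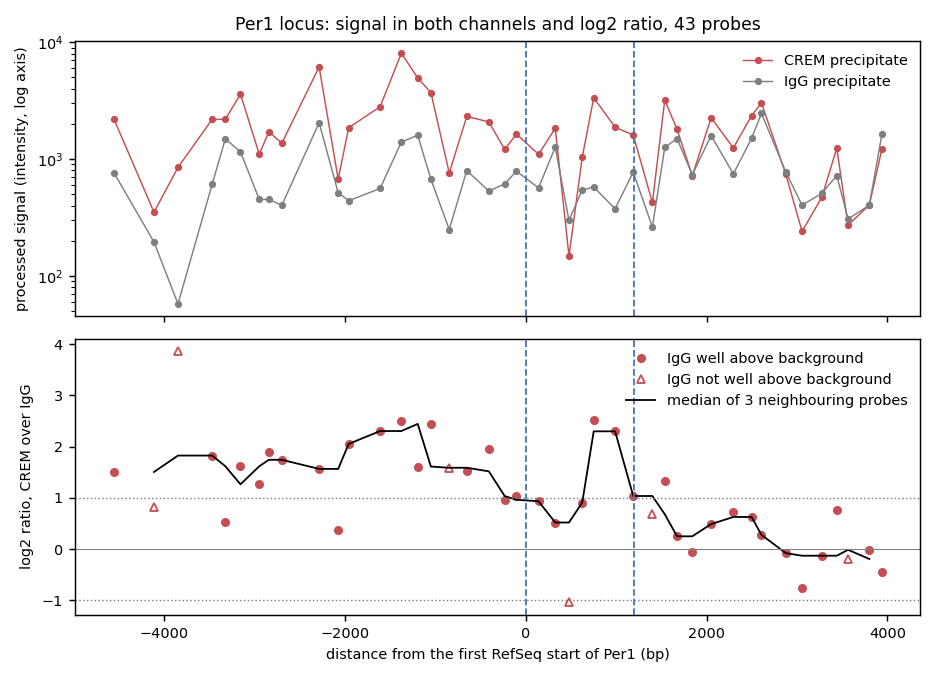
Processed signal of the CREM and IgG precipitates on a log axis (top) and log2 ratio of CREM over IgG (bottom) at the 43 probes of Per1, against distance in bp from its first RefSeq start. Dashed lines mark the 2 starts, dotted lines ratios of 1 and -1, and the black line is the median of 3 neighbouring probes. That median stays at or above 1 from its left end up to the probe centred at -232 bp. It reaches 1 again downstream of the first start before it falls towards 0.

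A further called region of Per1, with 4 windows and a top of 2.30, lay from 598 to 1568 bp downstream of the first start (chr11:68913049-68914019) and so included the second start. Between the 2 regions the probes read 0.93, 0.52 and -1.03, the last of them dim in IgG. Beyond the second region the ratio was lower, and the lowest window, from 3542 to 3963 bp, was -0.19, so that no window of Per1 reached -1. By distance, the 11 probes from -6000 to -2000 bp had a median of 1.57, the 7 from -2000 to -500 bp 2.05, the 6 within 500 bp of the start 0.95, and the 8 from 500 to 2000 bp 0.97. Upstream, 9 probes named for Vamp2, the next gene on the array, had a median of 0.76 and a maximum of 1.14.

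The breadth set Per1 apart from the other clock genes more than its maximum did. Per1 had 23 of 41 windows called (56.1%). All 10 genes together had 31 of 323 (9.60%), against 5.99% of all 350287 windows on the arrays. The other 9 genes had 8 of 282 (2.84%). Leaving out the highest gene, which was done after seeing the data, lowers this share by construction, so it is not read as a deficit. Of the 9066 gene names with at least 19 windows, the number at the clock gene with fewest, none but Per1 had as many as 23 called windows, and its median window of 1.04 exceeded that of 99.5% of them. Its highest window exceeded that of 97.7% of them.

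Counted by gene, the clock genes were close to the background. With Per1, 4 of 10 had a called window, namely Per1, Cry2, Per2 and Npas2, against 34.4% of all genes. Genes with more windows have more chances of a high one, and among those with at least 19 windows the share called was 39.5%. The median highest window of the 10 genes was 0.93, against 0.77 for all genes and 0.85 for those with at least 19 windows. In order the values were 2.44 for Per1, 1.47 for Cry2, 1.26 for Per2, 1.05 for Npas2, 0.95 for Rora, 0.92 for Arntl, 0.75 for Clock, 0.69 for Nr1d1, 0.55 for Cry1 and 0.40 for Per3. Per1 stood 0.98 above Cry2, while every other step between neighbours in this order was 0.22 or less. These steps were below the SD of 0.27 and 0.33 over all control probes, while those between 0.14 and 0.22 exceeded the 0.11 and 0.09 of the few bright ones, so the order of neighbours is not settled without replicates. Npas2 at 1.05 and Rora at 0.95, on either side of the call, differ by 0.10.

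**Figure D2:**
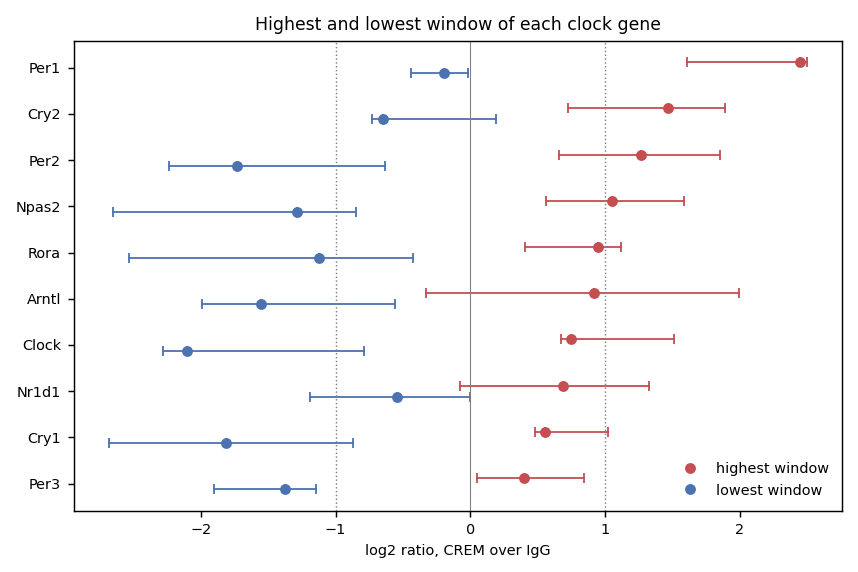
Highest (red) and lowest (blue) window of each clock gene as log2 ratio of CREM over IgG. Dots are the median of the 3 probes, bars and ticks the probes themselves, and dotted lines ratios of 1 and -1. Per1 is the highest at 2.44, and the lowest windows of Clock, Cry1 and Per2 lie at -2.10, -1.82 and -1.73.

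The other period genes differed from Per1. Per2, which encodes a further repressor of the loop and had 53 probes from -2.24 to 1.86, was called at 1.26 (chr1:93356508-93356885). The 3 probes read 0.66, 1.86 and 1.26, with CREM signals of 395, 1970 and 1457 and IgG signals of 246, 535 and 597, the first of them dim. Its called region was 538 bp long. Close to it, at chr1:93355636-93356033, 3 probes of Per2 read -0.64, -1.73 and -2.24, and there the CREM signals of 3854, 3576 and 420 were below the IgG signals of 5888, 11703 and 1948. Per2 thus had a CREM-side and an IgG-side stretch next to each other.

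Per3, the paralogue that is least needed for the rhythm in mice, was the lowest of the 10 at 0.40 (probes 0.05 to 0.85, chr4:150416755-150417082). Its 22 probes had a median of 0.23 and only 1 reached 1. Around its start, from -123 to 409 bp, the window was -1.38, with probes of -1.15, -1.90 and -1.38. The highest probe of Per3, at 1.94, was dim in IgG and stood alone between probes of -0.89 and -0.11.

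The cryptochromes encode the other repressors of the loop. Cry2 was called at 1.47 from -772 to -386 bp (chr2:92274612-92274998), where probes read 1.89, 0.72 and 1.47, with CREM signals of 2024, 420 and 1155 and IgG signals of 538, 250 and 411. Its region of 5 windows covered 1122 bp, and all 6 probes of Cry2 from -2000 to -500 bp lay between 0.72 and 1.62. Cry2 had no window at or below -1, its lowest being -0.65, though 1 probe near the start read -1.34. With normexp background correction its highest window was 0.46, below the call.

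Cry1 was not called. Its highest window was 0.55 (probes 0.48, 1.02 and 0.55, chr10:84646503-84646911), downstream of its start. From 23 to 322 bp its 3 probes read -0.87, -1.82 and -2.68, with CREM signals of 4776, 556 and 1249 against IgG signals of 8596, 1932 and 7919. The 6 IgG-side windows of Cry1 formed a region of 1292 bp, the length of which was reached by 5.62% of the 6246 IgG-side regions. The paralogues thus differed in both directions on the arrays, with Cry2 on array 1 and Cry1 on array 2.

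Of the activators of the loop, Npas2 was called and Arntl and Clock were not, and all 3 had IgG-side windows. Arntl, the obligate partner, had 0.92 (chr7:120352574-120352903), but its 3 probes disagreed at 0.92, -0.33 and 2.00, and the highest was dim in IgG. With probes well above background in both channels only, Arntl had 0.45. From 164 to 482 bp past its first start the probes read -1.99, -0.56 and -1.55. Immediately before this the ratio was positive, with 0.88 at the probe centred at -179 bp, which was dim in IgG, and 1.46 at the one that spans the second start, 46 bp downstream.

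That probe of Arntl carried a ROR element, the sequence through which NR1D1 and RORA act on this gene. It is shown with its neighbouring bases on the plus strand of mm9 (chr7:120351042-120351062), with the element in capitals.
Arntl, ROR element: ggaaggcagaAAGTAGGTCAg

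Clock had 0.75 at its highest (chr5:76734533-76734991), with probes of 0.68, 1.51 and 0.75, the last 2 dim in IgG. Downstream of its first start, from 560 to 939 bp, the probes read -2.28, -0.79 and -2.10, with CREM signals of 870, 476 and 1245 against IgG signals of 4157, 808 and 5253. This was the lowest window of the 10 genes. The region of 1340 bp around it took in both the first start and the start that lies 244 bp after the first. Npas2, the paralogue of Clock, was called at 1.05 from -3932 to -3448 bp (chr1:39247185-39247669), with probes of 1.59, 0.57 and 1.05, but 2 of the 3 were dim in IgG and the call was kept in only 4 of 10 other settings. Nearer its start, from -987 to -443 bp, its probes read -0.85, -1.29 and -2.65.

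The genes of the nuclear receptor loop were not called. Nr1d1 had 0.69 (probes -0.08, 1.33 and 0.69, chr11:98635528-98635937) and no window below -0.54. Its 6 probes within 500 bp of the start lay between -0.24 and 0.61. Rora had 0.95 from -981 to -554 bp (chr9:68500612-68501039), where all 3 probes were above background in both channels at 0.41, 0.95 and 1.12. From -139 to 206 bp Rora read -0.43, -1.12 and -2.53, so that its ratio changed sign between these neighbouring stretches.

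**Figure D3:**
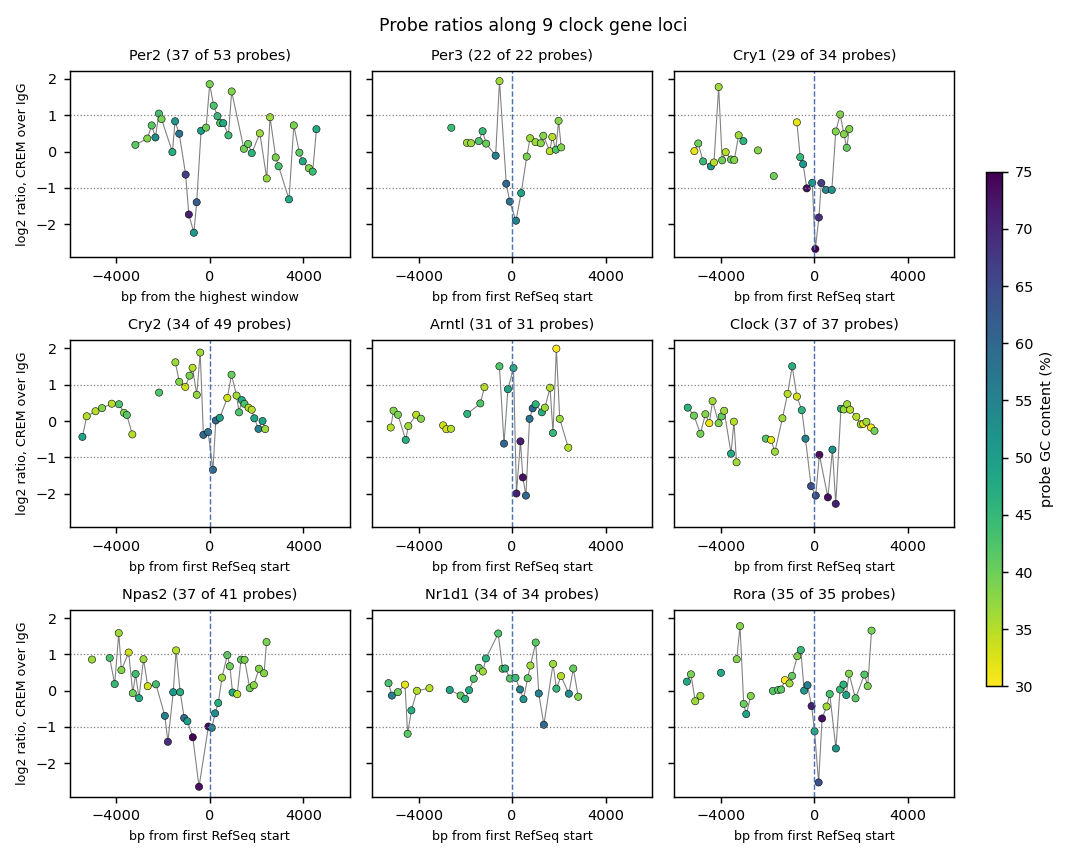
Log2 ratio of CREM over IgG at the probes of the other 9 clock genes within 6000 bp of the first RefSeq start (dashed line), or of the highest window for Per2, along the strand of the gene (for Per2, the plus strand of mm9). Colour gives the GC content of the probe in percent and dotted lines mark 1 and -1. The lowest points, down to -2.68, are mostly GC-rich, the -2.24 of Per2 at 51.1% GC being an exception, and 6 of the 8 genes with a placed start, all but Cry2 and Nr1d1, have a window at or below -1.

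IgG-side windows made up a larger share at the clock genes than over all genes, a difference that was not tested. Of the 10 genes, 7 had at least 1 window of -1 or lower (Arntl, Clock, Cry1, Npas2, Per2, Per3 and Rora), against 33.6% of all genes and 44.3% of genes with at least 19 windows, and at none of Per1, Cry2 and Nr1d1. By window the count was 24 of 323 (7.43%), against 4.56% of all windows. The lowest windows of these 7 genes had a mean GC content of 54.1 to 71.9%, against 41.1 to 48.7% at the other 3. Over all 454681 probes used, the 24287 with 60% GC or more had a median ratio of -1.08, against -0.19 for those from 45 to under 60% and 0.12 for those under 45%. The clock genes followed the same order, with medians of -1.29 at 31 probes, -0.04 at 107 and 0.31 at 241.

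None of the Per1 probes had 60% GC or more, their range being 30 to 55.6%. By class of GC content Per1 had a median of 1.60 at its 20 probes under 45% and 0.52 at its 23 probes from 45 to under 60%. The other 9 genes had 0.24 and -0.10 in these classes. Across the probes of Per1 the ratio also fell with GC content, with a correlation of -0.55. The part of GC content in the ratios of Per1 was not tested. With the median ratio of each 2% step of GC content removed, the highest window of Per1 was 2.41. Under the same correction only Rora kept an IgG-side window, or 1 of 10 genes, against 12.8% of all genes.

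**Figure D4:**
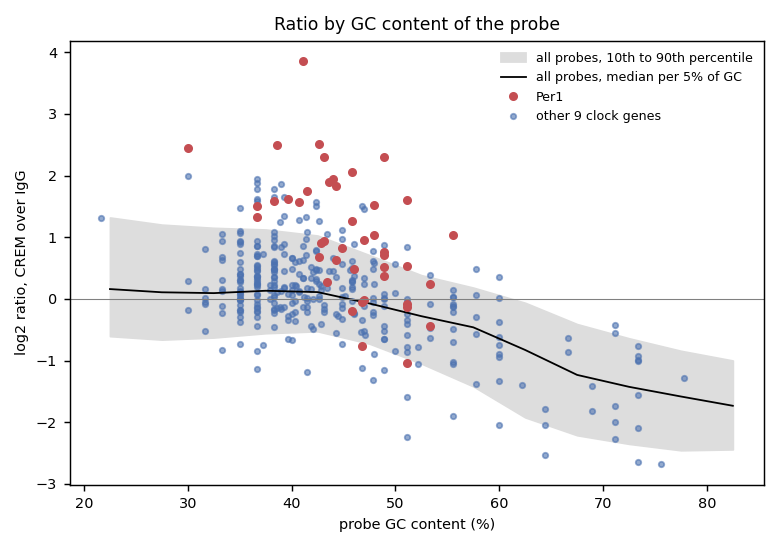
Log2 ratio of CREM over IgG against GC content of the probe in percent, for Per1 (43 probes, red) and the other 9 clock genes (336 probes, blue). The line is the median of all probes in steps of 5% GC and the grey band their 10th to 90th percentile. Per1 lies mostly above the line, up to 3.86, and of the 8 clock gene probes below -2, 7 have 60% GC or more and 1, at Per2, has 51.1%.

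Dim IgG signal also went with high ratios at the other genes, which is in part built in, since IgG is the divisor of the ratio. Of their 29 probes at or above 1, 16 were not well above background in the IgG channel, against 2 of 21 at Per1. In all, 58 of the 379 probes of the clock genes were dim in IgG. Probes dim in both channels had been left out, so these 58 could not also be dim in CREM, and 0 of the 379 were. Dim IgG signal was not particular to the clock genes. The IgG channel passed the background limit at 77.4% of all probes on array 1 and 78.5% on array 2. For the CREM channel the shares were 96.3% and 95.5%. The part of dim IgG signal in the calls was not tested beyond the setting that asked for both channels. In that setting Cry2 had 1.55, Per2 1.34, Rora 1.02 and Npas2 0.94, beside 2.52 for Per1. Values there were centred anew on the probes kept, which by itself moves every ratio of an array. The highest window of Rora, 0.95 in the main setting, already had all its probes above background in both channels.

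The recognition sequence of CREM was rare in these probes. The full element TGACGTCA stood in 0 of the 379 probes of the clock genes, and in 0.0570% of all probes. The 259 probes of the arrays that held it had a median of -0.15. Of these, 14.6% on array 1 and 19.1% on array 2 reached 1, against 9.05% and 9.85% of all probes. Probes cover 25.3% of the Per1 locus, so an element between them went unseen. The core, TGACG or CGTCA, stood in 15 clock gene probes (3.96%), against 2.08% of all probes. These 15 had a median of 0.37, against -0.07 for all 9477 probes with the core. They ranged from -1.82 to 1.02, and only 1, at Cry1, reached 1.

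The core was found 3 times in Per1 probes, and those probes read 0.83, 0.37 and 0.96, below the 1.61 that was the median of the enriched region. They are shown on the plus strand of mm9 with the core in capitals (chr11:68908318-68908346, chr11:68910355-68910382 and chr11:68912195-68912221).
Per1, 0.83: ttgggtaagtgtCGTCAaggaaaatcccc
Per1, 0.37: gtacagtctggTGACGgggaaaagccaa
Per1, 0.96: ctttcattatTGACGgtgtgagacatc

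In the promoters, searched on both strands, the core occurred before both Per1 starts, at -246 to -242 bp and at -132 to -128 bp, and at Cry1 (-8 to -4 bp) and Cry2 (-209 to -205 bp). That is 4 of 13 entries, against 17.8% of all 32851 RefSeq promoters over the same 250 bases. The core at -246 to -242 bp of Per1 is the same site as the one shown above in the probe of 0.96. The full element was in none of the 13 and in 1.55% of all. The E-box was in the first Per1 promoter (-166 to -161 bp) and in that of Cry1 (-60 to -55 bp), against 6.02% of all. Per3 alone held the D-box, at -205 to -198 and -158 to -151 bp, an element found in 0.931% of all promoters. Such matches are descriptions of these windows only.

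Among probes, the E-box (0.506% of all probes) occurred in 1 of the clock genes, at Npas2 with 0.15, and the D-box (0.281%) in 2, both at Per2, with -0.64 and -2.24. The ROR element, taken as AGGTCA or GGGTCA directly after AANT, stood in 0.115% of all probes. It occurred in 4 clock gene probes, at Arntl with 1.46, Nr1d1 with 0.40, Npas2 with -0.04 and Clock with -0.79. The D-box probes of Per2 lay within its IgG-side stretch and are shown on the plus strand of mm9 (chr1:93355661-93355680 and chr1:93356008-93356033).
Per2, -0.64: cgagccgccggTTACGTAAg
Per2, -2.24: cgtcgctctctTTACATAAgacgcac

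Other genes that act in or on the clock had windows on both sides. From a list of 34 genes, 33 were measured and 14 had a called window (42.4%), against 34.4% of all genes. All 14 were among the 25 with at least 19 windows (56%), against 39.5% of all genes of that size. An IgG-side window was present at 22 of the 33 (66.7%), against 33.6% of all genes, and at 17 of the 25 (68%), against 44.3%. Of their 833 windows 6.12% were called, close to the 5.99% of all windows, and 9.12% were IgG-side, against 4.56%. These differences were not tested. The higher share of called genes was not kept in every setting. With normexp background correction 5 of the 33 were called, against 16.2% of all genes. The highest was Usp2, a deubiquitinase that acts on PER1 and ARNTL, at 2.65 (probes 1.20 to 3.04), with CREM and IgG signals of 838 and 275 (medians of the window). Its 11 called windows formed a region of 2455 bp, which ranked 70 in length. Hlf, a D-box factor, followed at 2.50 (probes 0.44 to 3.69) with 11 called windows. Unlike those of Usp2 they did not form 1 region, and a region of 851 bp with a top of 1.15 held 3 of them. In both genes only 1 of the 3 probes was above background in both channels, but across 10 other settings neither fell below 1.88.

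The next in order were genes of enzymes and a D-box factor. Ppp1cb, a catalytic subunit of protein phosphatase, had 1.74, Csnk2a1, of casein kinase 2, 1.55, the casein kinase 1 genes Csnk1d and Csnk1e 1.30 and 1.28, and Prkaa1, of the AMP-activated kinase, 1.26. The D-box factor Tef had 1.36. Each of these 6 fell below 1 in at least 1 other setting, the lowest being 0.34 for Csnk1e. At the other end, Nr1d2, the paralogue of Nr1d1, had 0.33, Dbp, the best-known D-box factor and a direct target of CLOCK and ARNTL, 0.27, and Rorb, the paralogue of Rora, 0.13. The 3 D-box activators thus spread from 2.50 for Hlf to 0.27 for Dbp.

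The choice of processing moved the clock genes by unequal amounts. Per1 stayed above 1 in all 10 other settings that give a highest window and ranged from 1.80 to 2.52. Cry2 was called in 9 of them (0.46 to 1.55) and Per2 in 7 (0.67 to 1.37). Arntl and Rora, not called, passed 1 in 1 setting each, at 1.08 and 1.02. Cry1, Per3, Clock and Nr1d1 passed it in none, with a highest value of 0.98 among them.

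The number of clock genes called differed between settings, as did the share of all genes. With normexp background correction only Per1 was called, against 16.2% of all genes, and only Clock had an IgG-side window, against 3.7%. The windows called there were 16 of 323, all at Per1, against 2.43% of all windows, and those on the IgG side 2, against 0.34%. The authors' deposited values called Per1 and Cry2, against 17.3% of all genes. They gave 20 of the 323 clock gene windows on the CREM side, 19 of them at Per1, against 2.91% of all windows on the arrays. On the IgG side they gave 14, against 2.65%. At a threshold of 1.5 Per1 alone was called, against 14.1% of all genes, and Arntl, Clock, Cry1 and Per2 had IgG-side windows, against 13.5%. That threshold left 19 of the 323 windows on the CREM side, all of them at Per1, against 2.03% of all windows. On the IgG side it left 11, against 1.48%.

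Per1 and Cry2 were also the genes called with windows of 5 probes, against 19.8% of all genes. Per1, Cry2, Per2 and Rora were called where both channels had to be above background, against 20.8%. With the GC trend removed Arntl took the place of Npas2 among the 4 called, against 30.7%, and 2 IgG-side windows remained, against 1.26% of all windows. Per1 was thus called in each of these 6 settings.

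**Figure D5:**
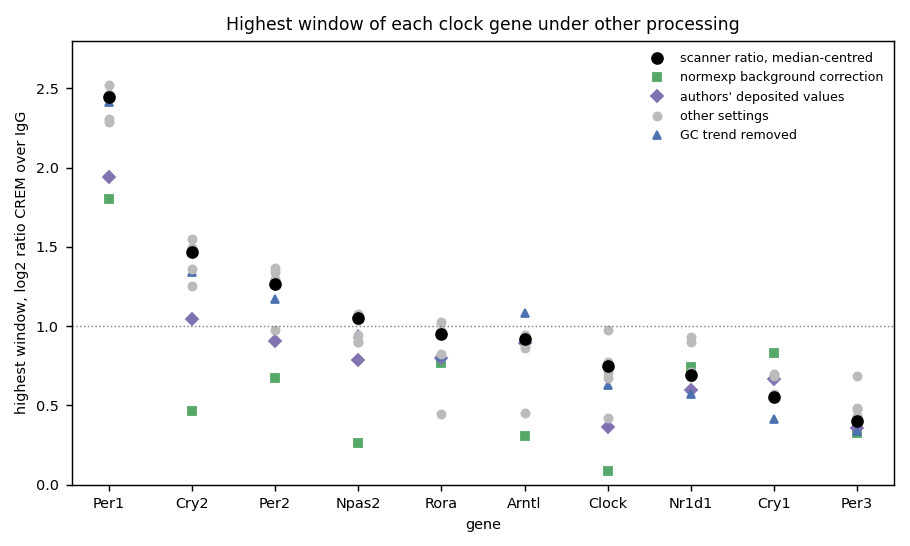
Highest window of each clock gene, as log2 ratio of CREM over IgG, with the scanner ratio (black) and under 10 other settings, of which 3 have their own symbols. The dotted line marks a ratio of 1. Every value of Per1 lies between 1.80 and 2.52, while Cry2, Per2 and Npas2 have values on both sides of 1.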

How the data were processed

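Deposited Agilent files give spot intensity in each channel as scanned and as processed signal, background-subtracted and dye-normalised per the file headers (Feature Extraction 10.7.1.1, mm9). Per the file headers, LogRatio is log10 of processed Cy5 over Cy3, recomputed here within 4.08e-07. The other deposited columns used are flags, given by the authors with no further unit. Values in the authors' deposited table are log2 ratios; background subtraction and limma loess returned them in file order within 5.00e-08, centred near 0 (medians -0.00096 and -0.00103), as Cy5 over Cy3. R 2.10.1 and limma are named in the submitters' processing notes.

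Here log2 of processed Cy5 over Cy3 was centred per array (shifts of 0.02), without loess. Control spots, outliers, probes without a position and probes dim in both channels were left out, leaving 228277 and 226404 probes. Alternatives were normexp (offset 50), loess, the authors' values, no centring, GC correction (bins of 2%, at least 50 probes), other filters for dim probes, 5-probe windows, means, a 300 bp gap, the median window and a threshold of 1.5. Synonyms had to lie on the gene's chromosome, so Stra13 (20 probes on chromosome 11) was not read as Bhlhe40. Starts were placed in mm9 by exact probe matches. Python 3.11.15, R 4.3.3 and limma 3.58.1 were used, and the window code was tested on simulated data. Named were all 10 genes, and of the other clock genes the 8 highest called and the 3 lowest. The members and lists were chosen with earlier results of these data known. Kdm5a was not measured.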

Additional observations from a re-analysis of the deposited data

How the results depend on the processing

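With 1 hybridisation per array, no replicate could be left out. No paired analysis was possible because each group has 1 sample. Of the main 4 genes called, 31 called windows, 7 genes with IgG-side windows and 24 IgG-side windows, normexp background correction left 1, 16, 1 and 2, and gave a median highest window of 0.57 for the 10 genes, where the main setting gave 0.93. The authors' deposited values gave 2 genes called, 20 called windows and 14 IgG-side windows. Removal of the GC trend left 1 gene with an IgG-side window and 2 such windows. Windows of 5 probes gave 2 genes called. A threshold of 1.5 left 1 gene and 19 windows called, and 4 genes and 11 windows on the IgG side. The median of all windows, in place of the highest, gave 0.10 for the 10 genes. The 14 of 33 other clock genes called became 5 with normexp, with the authors' values, with both channels above background and with windows of 5 probes. The shares of all genes called there were 16.2%, 17.3%, 20.8% and 19.8%. With the GC trend removed 8 of the 33 were called, against 30.7% of all genes, and at a threshold of 1.5 it was 4, against 14.1%. In each of these settings the share of the 33 was below that of all genes, a difference that was not tested. A stricter threshold calls fewer by construction, and for the other settings the cause was not tested. The filter and the larger window also left fewer windows, and the part of this in the counts was not tested. Under the alternatives not named for a count it stayed within 1.5 times, and none of the 4 called genes had a negative value. Dim IgG signal limits the ratios of 58 probes. The length and rank of the Per1 region and counts without Per1 were added after seeing the data.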
